A study of Mus musculus with 4 samples.

Results

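The genes of the platelet-derived growth factor (PDGF) family were followed in the open chromatin of fibroblastic reticular cells, the fibroblasts that form the framework of lymph nodes. There were 7 genes: the receptor genes Pdgfra and Pdgfrb, the receptor-like gene Pdgfrl, and the ligand genes Pdgfa, Pdgfb, Pdgfc and Pdgfd. Their members are 49 of 110110 accessible regions, chosen by position alone: the midpoint of the best window of a region lies inside the gene, or the gene is the nearest protein-coding one within 100000 bp. The assay was ATAC-seq: a transposase cuts open DNA and leaves sequencing adapters there. All positions are in mm10, and a region may act on another gene than the nearest.

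Notch2_cKO libraries came from Ccl19-Cre x Notch2 fl/fl mice, in which a Cre driven by Ccl19 sequence recombines the floxed Notch2 allele, so deletion is limited to cells with Ccl19-Cre activity. Control libraries came from Notch2 fl/fl littermates, which carry the floxed allele without the Cre. There were 2 libraries per genotype, and each pooled the peripheral lymph nodes of 6 female mice of 12 weeks on a C57BL/6 background. From each pool, 50000 cells high for BP3 and positive for podoplanin were sorted, without the cells that carry CD31 (endothelial) or CD45 (leukocytes). At the targeted gene Notch2, 17 regions summed to 196 and 198 CPM in Notch2_cKO and 179 and 185 CPM in control. Of these, 5 were higher and 1 lower by the test described below, beside 12.4% higher and 11.2% lower over all regions. The floxed stretch is not named in the labels, so its deletion was not checked.

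Summed over the best windows, the Notch2_cKO libraries held 30260067 and 12340742 counts and the control libraries 23629588 and 25740366, so Notch2_cKO replicate 2 was the shallowest. Control replicate 2 held 221 counts near the Y-linked gene Ddx3y and 201 near Eif2s3y, and each other library held 0. All pools carry the label female. Results for the member regions and gene sums that passed the test are therefore also given without that library. Those for Notch2 and for the other gene lists below are given with all libraries only. Levels are CPM, the count in the 300-bp best window scaled to library depth after loess adjustment between libraries. The highest level among the regions of Pdpn, which encodes podoplanin, was 45.7 and 48.6 CPM in Notch2_cKO and 39.6 and 37.9 CPM in control. For Bst1, which encodes BP3, it was 38.8 and 38.7 CPM in Notch2_cKO and 35.6 and 36.3 CPM in control, so both sorted markers were open in every library. The single region of the T cell gene Cd3e had 1.69 and 1.6 CPM in Notch2_cKO and 1.68 and 1.38 CPM in control. The highest level among the regions of Pecam1 (CD31) was 22.6 and 21.1 CPM in Notch2_cKO and 23.8 and 20.7 CPM in control. For Ptprc (CD45) it was 15.8 and 16.2 CPM in Notch2_cKO and 20.9 and 15.9 CPM in control, so both genes of gated-out proteins had open regions.

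PDGF ligands are secreted dimers that bind receptor tyrosine kinases on mesenchymal cells and drive their growth, migration and survival. PDGF-A and PDGF-C act mainly through the alpha receptor, PDGF-D mainly through the beta receptor, and PDGF-B binds both. PDGF-C and PDGF-D are released in a latent form and must be cut by proteases before they bind. The alpha receptor marks fibroblasts in many tissues, and the beta receptor marks mural cells as well as fibroblasts, lymph node reticular cells among them.

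RefSeq promoter sequences of GRCm38.p6 (the assembly called mm10) were matched for 4 of the 7 genes, with 5 entries. Pdgfd was the only one of these genes at which a region overlapped the promoter entry, so its sequence is shown: the 250 bases before the transcript start, on the plus strand, chr9:6168236-6168485. Capitals mark the match to TGGGAA, the core letters of sites bound by RBPJ, the DNA-binding partner of Notch, here on the opposite strand.
Pdgfd promoter: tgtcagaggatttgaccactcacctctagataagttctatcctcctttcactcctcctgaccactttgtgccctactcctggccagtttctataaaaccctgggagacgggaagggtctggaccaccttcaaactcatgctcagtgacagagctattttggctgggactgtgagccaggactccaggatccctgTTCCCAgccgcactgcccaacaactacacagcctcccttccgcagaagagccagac
The match begins 56 bases before the transcript start. Searched on both strands over 300 bases, TGGGAA occurs in 25.6% of the 32851 promoters of the table, so the match is common. It also occurs once in 1 of the 2 Pdgfa promoter entries, and in neither the Pdgfra nor the Pdgfc entry. TGANTCA, the AP-1 letters, is in 7.81% of all promoters and in none of the 5 entries. CANNTG, the E-box letters, is in 72.3% of all promoters and occurs among these entries only at Pdgfra, with 2 matches. A match describes the letters and not a bound site.

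Of the 49 regions, 8 were more accessible in Notch2_cKO than in control, 5 were less accessible and 36 did not pass (edgeR quasi-likelihood test over all regions, Benjamini-Hochberg adjusted p under 0.05). The 13 called regions make up 26.5% of the members, beside a background of 23.6% of all 110110 regions, so the family as a whole changed about as often as any region. The higher share was 16.3% against 12.4% over all regions, and the lower share 10.2% against 11.2%. A change of at least 2-fold was called at 4 members, beside 9.89% of all regions. The median log2 change, Notch2_cKO over control, was 0.03 over the members and 0.006 over all regions. Both Notch2_cKO libraries lay beyond both controls at 35 members (71.4%), against 59.8% of all regions. With 2 libraries a group, an exact two-sided permutation test of a single region cannot go below p = 0.333, so each call rests on the spread that edgeR pools over regions. Without control replicate 1 the counts were 3 higher and 3 lower, and without control replicate 2 they were 6 and 5.

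**Figure D1:**
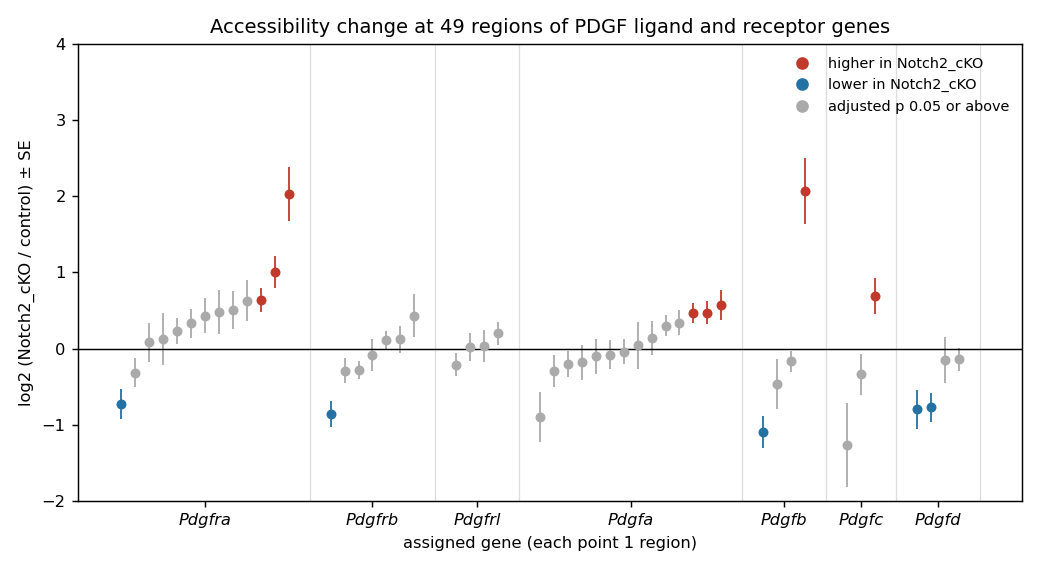
Log2 change of accessibility (Notch2_cKO over control, with its standard error) for each of the 49 regions, grouped by assigned gene and ordered by size within a gene. Red regions passed the test as higher and blue regions as lower; the higher ones lie mostly at Pdgfra and Pdgfa, and all 4 points of Pdgfd lie below 0.

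The changed regions had no common level or place. Their median level stood at the 53.5th percentile of all regions, and that of the other members at the 52.9th. Inside the genes 5 of 23 regions were called, and outside them 8 of 26. The 4 members within 1000 bp of a gene end did not pass, also unadjusted, nor with DESeq2 or limma (0 calls each way). Over the series 10.1% of the 13442 gene-end regions were called, so 4 members are too few to tell their share from it. Within the 13 called regions, all 77 windows of 300 bp had both Notch2_cKO libraries on the called side of both controls. Overlapping windows share reads, so they are not separate measurements. The regions were also called on their best window, which the other windows overlap, so this agreement adds no support to the calls.

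**Figure D2:**
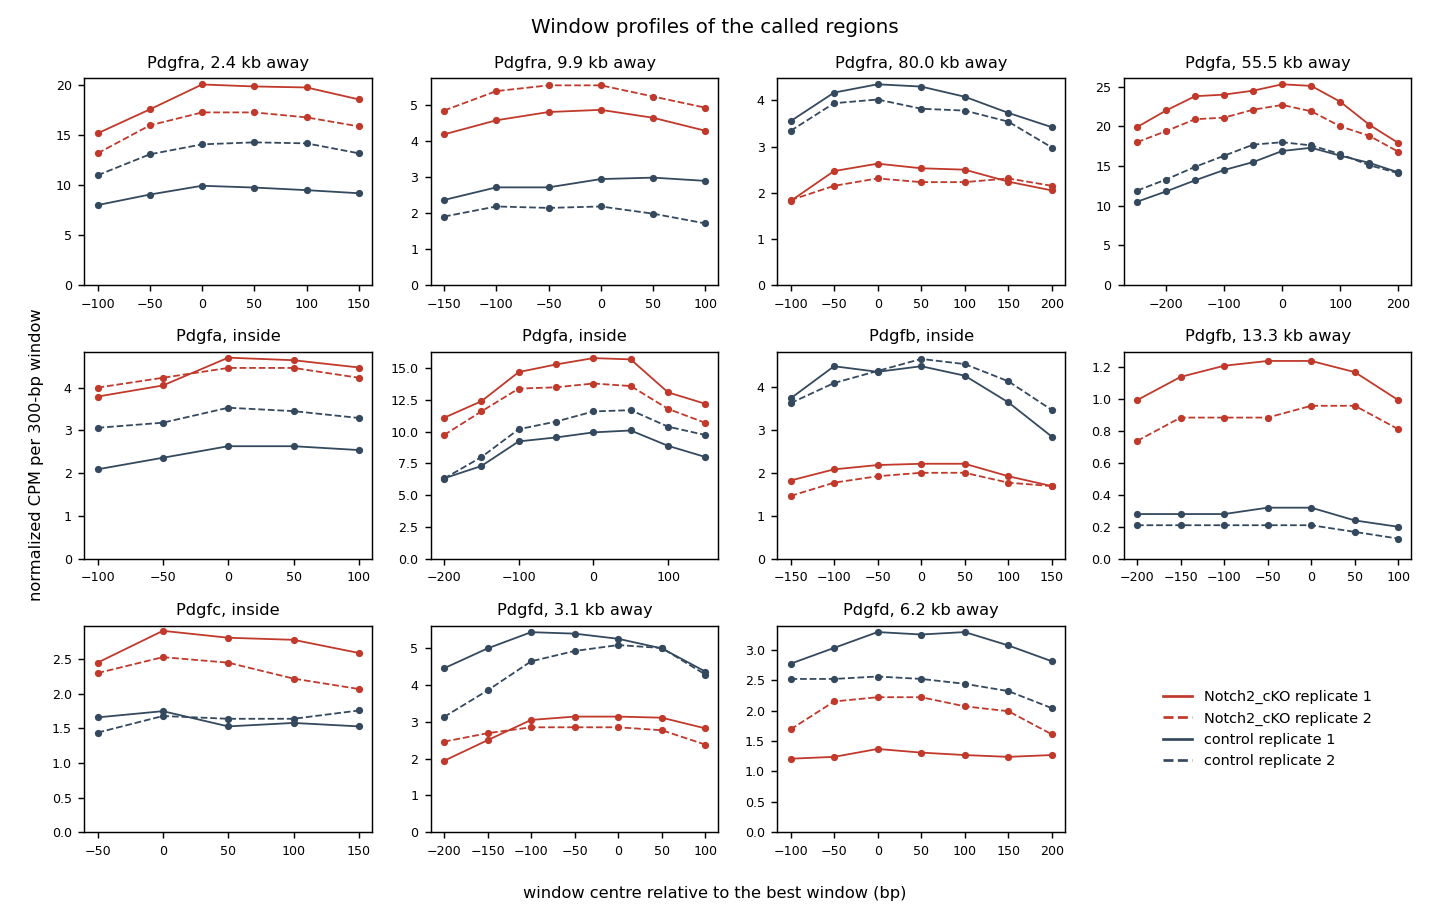
Normalized CPM of each 300-bp window along the 11 called regions that hold more than 1 window, against the distance of the window from the best window in bp. Solid and dashed lines are replicates 1 and 2 of Notch2_cKO (red) and control (dark blue). The regions were called on their best window, and in each the lines of the genotypes stay apart along its length.

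Accessibility was also summed over all regions of a gene, which gave 1 value per gene and library. At Pdgfra the sum rose 1.38-fold in Notch2_cKO and at Pdgfa 1.27-fold, and at Pdgfd it fell to 0.765 of the control level. For these 3 of 7 genes the test passed, beside 18.5% of the 17669 genes with a region (edgeR, adjusted over all genes). Over all genes 10.3% were higher and 8.21% lower. The summed levels of Pdgfrb, Pdgfrl, Pdgfb and Pdgfc did not pass. Without control replicate 1 no gene passed (edgeR, 2 of 7 at an unadjusted p under 0.05). Summed levels follow the number of regions a gene has and cannot be ranked between genes.

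**Figure D3:**
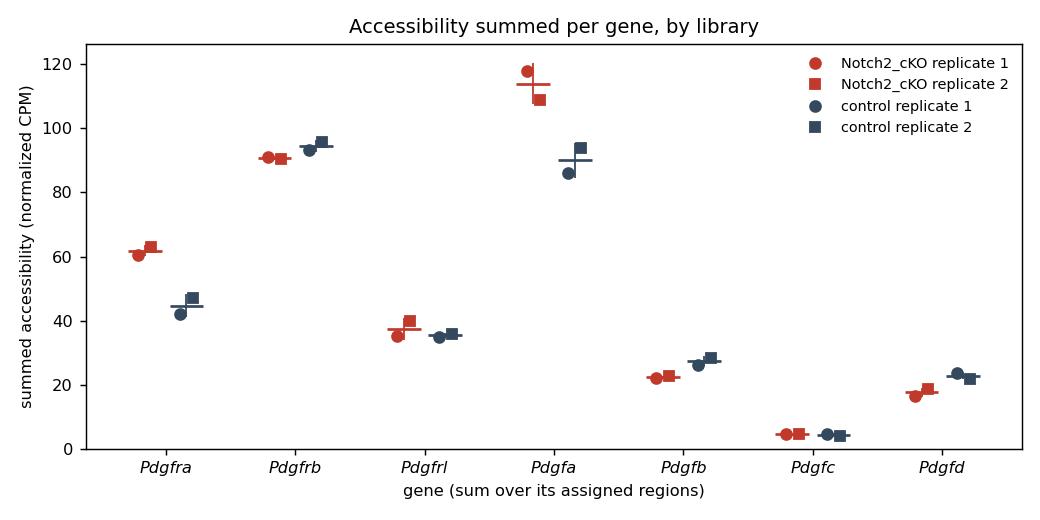
Normalized CPM summed over the regions of each gene, by library, with Notch2_cKO (red) left of control (dark blue); lines are means and bars SD over 2 libraries. Both Notch2_cKO libraries lie above both controls at Pdgfra and Pdgfa and below them at Pdgfd, Pdgfb and Pdgfrb; the sums of Pdgfb and Pdgfrb did not pass the test.

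Pdgfra, which encodes the alpha receptor, had 13 regions on chromosome 5, from 5722 bp upstream of the gene (75151322 to 75198206, plus strand) to 82294 bp past its end. Summed accessibility was 60.5 and 63.0 CPM in the Notch2_cKO libraries and 42.2 and 47.2 CPM in the controls. Both Notch2_cKO libraries lay above both controls. The log2 change was 0.46 (SE 0.09, edgeR adjusted p = 0.00306). It was 0.55 without control replicate 2 (edgeR adjusted p = 0.00267) and 0.39 without control replicate 1, where the call was lost (edgeR adjusted p = 0.0564). Single regions mostly went the same way: 11 of 13 had a log2 change above 0, of which 3 rose by the test, while 1 of the other 2 fell. Both Notch2_cKO libraries were above both controls at 9 of the 13 regions and below them at 2. Groups lay apart, in either direction, at 59.8% of all regions. The transcript start of the promoter entry, 75152251, was not covered by a region analysed here.

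The most open Pdgfra region lay upstream, 2372 bp before the gene (75148701 to 75149250). It held 624 and 219 counts in Notch2_cKO and 226 and 359 in control, which after adjustment for depth came to 20.1 and 17.3 CPM in Notch2_cKO and 9.95 and 14.1 CPM in control. The groups did not overlap, although the controls differed from each other by more than the Notch2_cKO libraries did. The rise was 1.56-fold (log2 0.64, SE 0.16, edgeR adjusted p = 0.00575). It rested on control replicate 1, the lowest library: without it the log2 change was 0.41 (edgeR adjusted p = 0.2), and without control replicate 2 it was 0.91 (edgeR adjusted p = 0.00107).

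Past the end of Pdgfra, changed regions went both ways. The region 9944 bp beyond the gene (75207851 to 75208400) had 4.86 and 5.54 CPM in Notch2_cKO and 2.94 and 2.18 CPM in control, a 2.01-fold rise (log2 1.01, SE 0.21, edgeR adjusted p = 0.00125). Its call held with each library left out in turn, with log2 changes from 0.80 to 1.23. A narrow region of a single window, 51744 bp beyond the gene (75249801 to 75250100), had 51 and 20 counts in Notch2_cKO and 10 and 9 in control. These came to 1.72 and 1.5 CPM in Notch2_cKO and 0.419 and 0.374 CPM in control, where it was barely open (log2 2.03, SE 0.36, edgeR adjusted p = 0.000308). Its call also held with each library left out, and its level in all libraries was low, at the 10.5th percentile of all regions.

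The lower Pdgfra region lay farthest out among the changed ones, 79994 bp beyond the gene (75277951 to 75278550). It had 2.63 and 2.31 CPM in Notch2_cKO and 4.35 and 4.02 CPM in control, so the groups did not overlap (log2 -0.73, SE 0.20, edgeR adjusted p = 0.0128). With the DESeq2 test it did not pass (DESeq2 adjusted p = 0.164). Without control replicate 1 the call was lost (log2 -0.68, edgeR adjusted p = 0.078), and without control replicate 2 it held (edgeR adjusted p = 0.0347). Both regions inside Pdgfra had higher values in both Notch2_cKO libraries but did not pass: 2.56 and 2.38 against 1.18 and 2.01 CPM at 75164651 (edgeR adjusted p = 0.0954), and 2.71 and 2.76 against 2.06 and 2.00 CPM at 75185501 (edgeR adjusted p = 0.193). The outermost member, 82294 bp away, had 1.78 and 1.91 CPM in Notch2_cKO and 1.86 and 1.61 CPM in control. The first region beyond the limit of 100000 bp, 117944 bp away and not a member, had 5.58 and 5.56 CPM in Notch2_cKO and 6.76 and 6.52 CPM in control.

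**Figure D4:**
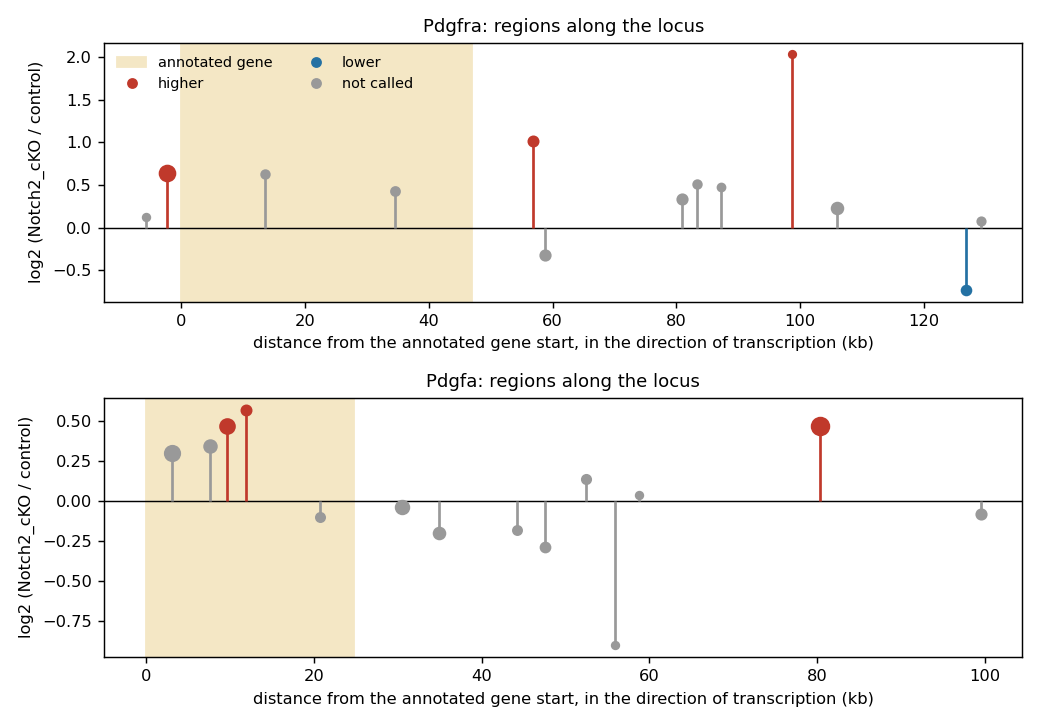
Regions of Pdgfra (top) and Pdgfa (bottom) by distance from the annotated gene start in kb, in the direction of transcription, with their log2 change (Notch2_cKO over control); the shaded stretch is the gene, and larger points are more open regions. At Pdgfra changed regions lie before and past the gene, and at Pdgfa the 4 regions nearest the annotated gene start are all above 0.

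Pdgfrb, which encodes the beta receptor, had 7 regions on chromosome 18, all inside the gene (61045127 to 61085067). Its summed accessibility was 91.2 and 90.4 CPM in Notch2_cKO and 93.3 and 95.9 CPM in control (log2 -0.06, SE 0.07, edgeR adjusted p = 0.588). The region at the lower-numbered gene end (61044801 to 61045450) was the most open of all 49 members, at the 92.9th percentile of the series. It had 35.1 and 29.8 CPM in Notch2_cKO and 29.5 and 30.8 CPM in control, with the groups overlapping (log2 0.11, SE 0.12, edgeR adjusted p = 0.526). The next most open region, at 61074451, had 21.1 and 24.9 CPM in Notch2_cKO and 27.9 and 27.6 CPM in control and did not pass (edgeR adjusted p = 0.104).

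A single region of Pdgfrb changed, 13523 bp from the nearer gene end (61058501 to 61058800, a single window). It held 196 and 63 counts in Notch2_cKO and 219 and 285 in control. Adjusted for depth it had 6.34 and 4.89 CPM in Notch2_cKO and 9.72 and 11.2 CPM in control. It fell to 0.551 of the control level (log2 -0.86, SE 0.17, edgeR adjusted p = 0.000826), and the call held with each library left out, with log2 changes from -1.08 to -0.72. The other 6 regions of the gene had log2 changes of either sign and did not pass.

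Pdgfrl encodes a secreted protein that resembles the extracellular part of a PDGF receptor and has no kinase domain. Its 4 regions, all inside the gene on chromosome 8 (40926233 to 40990782), did not pass (edgeR, and 0 calls unadjusted or with DESeq2 or limma). Summed accessibility was 35.1 and 39.8 CPM in Notch2_cKO and 34.9 and 35.9 CPM in control (log2 0.07, SE 0.10, edgeR adjusted p = 0.677). Its most open region, at 40963051, had 15.2 and 12.7 CPM in Notch2_cKO and 11.3 and 13.2 CPM in control. The gene-end region at 40926051 had 9.45 and 9.36 CPM in Notch2_cKO and 11.4 and 10.5 CPM in control (log2 -0.21, SE 0.15, edgeR adjusted p = 0.336).

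Pdgfa, which encodes the main ligand of the alpha receptor, had 14 regions on chromosome 5, 5 of them inside the gene (138976014 to 139000792, minus strand) and 9 past its end. Summed accessibility was 118 and 109 CPM in Notch2_cKO and 86.1 and 93.8 CPM in control, without overlap. The log2 change was 0.34 (SE 0.07, edgeR adjusted p = 0.00635). It was 0.41 without control replicate 2 (edgeR adjusted p = 0.0055) and 0.28 without control replicate 1, where the call was lost (edgeR adjusted p = 0.0966).

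The most open Pdgfa region lay 55514 bp past the end of the gene (138920101 to 138920850) and was the strongest of those outside any member gene. It had 25.3 and 22.7 CPM in Notch2_cKO and 16.9 and 18 CPM in control, a 1.38-fold rise (log2 0.47, SE 0.13, edgeR adjusted p = 0.0109). The groups did not overlap, but the call needed both controls: without replicate 1 the adjusted p was 0.169 and without replicate 2 it was 0.0832 (edgeR). Its log2 change stayed between 0.39 and 0.54 with a library left out.

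Inside Pdgfa, the region from 138990801 to 138991450 had 15.8 and 13.8 CPM in Notch2_cKO and 9.95 and 11.6 CPM in control (log2 0.47, SE 0.15, edgeR adjusted p = 0.0249). Its neighbour from 138988651 to 138989150 had 4.70 and 4.46 CPM in Notch2_cKO and 2.63 and 3.53 CPM in control (log2 0.57, SE 0.20, edgeR adjusted p = 0.0445). Both Notch2_cKO libraries were above both controls at each of them. Without control replicate 2 the log2 change was 0.57 at 138990801 and 0.80 at 138988651. The calls were fragile: that at 138990801 was lost without control replicate 1 (edgeR adjusted p = 0.314), control replicate 2 (0.0702) or Notch2_cKO replicate 1 (0.129), and that at 138988651 without control replicate 1 (0.394) or Notch2_cKO replicate 1 (0.166). Nearer the annotated gene start, the regions at 138992951 and 138997401 also had higher values in both Notch2_cKO libraries without passing. They had 9.51 and 8.31 against 7.50 and 6.75 CPM, and 16.5 and 14.7 against 13.5 and 12.0 CPM. The Pdgfa promoter entries have their transcript starts at 138994281 and 138994944. In the direction of transcription the region at 138997401 lies before both of these, and that at 138992951 past them. Of the remaining regions past the gene, that of smallest p, at 138944751, had 0.703 and 0.830 CPM in Notch2_cKO and 1.52 and 1.28 CPM in control and narrowly missed the threshold (log2 -0.90, SE 0.33, edgeR adjusted p = 0.0515).

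Pdgfb, which encodes the ligand that endothelial cells use to recruit mural cells, had 4 regions on chromosome 15 (gene from 79995865 to 80024614), and they went both ways. The most open one, 1286 bp past the higher-numbered gene end (80025551 to 80026200), held 78.1% of the counts of the gene. It had 17.2 and 16.4 CPM in Notch2_cKO and 17.5 and 20.3 CPM in control and did not pass (log2 -0.17, SE 0.14, edgeR adjusted p = 0.412). Inside the gene, the region from 80003501 to 80004100 had 2.21 and 2.00 CPM in Notch2_cKO and 4.48 and 4.65 CPM in control. It fell to 0.468 of the control level (log2 -1.10, SE 0.21, edgeR adjusted p = 0.000593), and the call held with each library left out.

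The other changed region of Pdgfb, 13286 bp past the same end (80037551 to 80038150), held 35 and 13 counts in Notch2_cKO and 8 and 5 in control, where it was almost closed. In CPM these were 1.24 and 0.959 in Notch2_cKO and 0.320 and 0.210 in control (log2 2.07, SE 0.43, edgeR adjusted p = 0.00148). The call held with each library left out, but the few counts leave the size of the change imprecise, with log2 changes from 1.71 to 2.47. Summed over the gene, accessibility was 22.1 and 22.7 CPM in Notch2_cKO and 26.1 and 28.4 CPM in control and did not pass (log2 -0.29, SE 0.11, edgeR adjusted p = 0.0809).

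Pdgfc, which encodes a latent ligand of the alpha receptor, had only 3 regions on chromosome 3 (gene from 81036416 to 81214040, plus strand) and the lowest levels of the family. The region 3084 bp inside the gene start (81039301 to 81039800) had 2.91 and 2.53 CPM in Notch2_cKO and 1.75 and 1.68 CPM in control. The groups did not overlap (log2 0.69, SE 0.24, edgeR adjusted p = 0.0387). Among the 13 calls this one was lost under the most alternatives, among them leaving out control replicate 1 (edgeR adjusted p = 0.119), control replicate 2 (0.181) or Notch2_cKO replicate 1 (0.287). The region 27210 bp past the gene held 4 and 6 counts in Notch2_cKO and 20 and 11 in control and did not pass (edgeR adjusted p = 0.105), and the sum over the gene was 4.6 and 4.67 CPM in Notch2_cKO and 4.71 and 4.13 CPM in control.

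Pdgfd, which encodes a latent ligand of the beta receptor, had 4 regions on chromosome 9 (gene from 6168363 to 6534284, plus strand), all with log2 changes below 0. Summed accessibility was 16.6 and 18.6 CPM in Notch2_cKO and 23.6 and 21.9 CPM in control (log2 -0.39, SE 0.12, edgeR adjusted p = 0.0388). The groups did not overlap, but the call was lost without control replicate 1 (edgeR adjusted p = 0.323), control replicate 2 (0.132) or Notch2_cKO replicate 1 (0.144). It was also lost with TMM scaling (log2 -0.29, edgeR adjusted p = 0.111).

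The promoter region of Pdgfd, which overlaps most of the sequence shown above (6168251 to 6168850), was the most open of the gene and did not pass. It had 10.2 and 10.0 CPM in Notch2_cKO and 11.5 and 10.8 CPM in control (log2 -0.14, SE 0.15, edgeR adjusted p = 0.539). The region 3063 bp upstream (6164951 to 6165550) held 97 and 37 counts in Notch2_cKO and 118 and 128 in control, or 3.14 and 2.85 CPM in Notch2_cKO and 5.25 and 5.08 CPM in control. It fell to 0.588 of the control level (log2 -0.77, SE 0.19, edgeR adjusted p = 0.00556), also with each library left out. With the DESeq2 test the call was lost (DESeq2 adjusted p = 0.096). The region 6166 bp past the gene (6540201 to 6540800) had 1.37 and 2.22 CPM in Notch2_cKO and 3.29 and 2.56 CPM in control (log2 -0.80, SE 0.26, edgeR adjusted p = 0.0313). Without control replicate 2 its log2 change was -0.97. Its Notch2_cKO libraries differed, and its call was lost without Notch2_cKO replicate 1 (log2 -0.38, edgeR adjusted p = 0.458) or control replicate 1 (0.213).

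**Figure D5:**
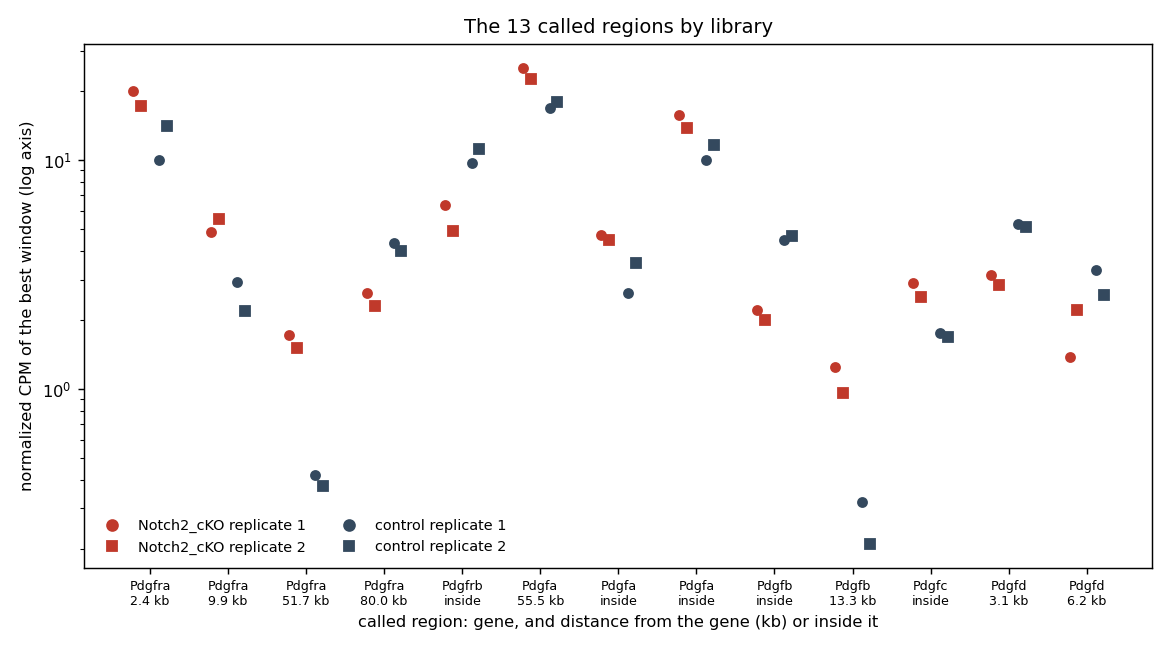
Normalized CPM of the best window (log axis) in each library for the 13 called regions, labelled by gene and by distance from it in kb, with Notch2_cKO (red) left of control (dark blue). The regions shown were chosen by the test on these values, and in each both Notch2_cKO points lie on the same side of both control points.

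Taking receptors and ligands apart, the 24 regions of Pdgfra, Pdgfrb and Pdgfrl had 3 higher and 2 lower calls (20.8%, median log2 0.12), and the 25 regions of the ligand genes had 5 higher and 3 lower (32.0%, median log2 -0.14). Both shares are given beside the 23.6% of all regions, and their difference was not tested.

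Other genes of the pathway were counted in the same way. Genes of co-receptors and of proteins that process or bind PDGF ligands (Nrp1, Lrp1, Furin, Plat, Plau, St14 and Sparc) had 15 higher and 8 lower of 87 regions. Together 26.4% of these were called, beside 23.6% of all regions, and the median log2 change was 0.18. At Nrp1, which encodes the co-receptor neuropilin-1, a region 89474 bp away had 29.0 and 27.2 CPM in Notch2_cKO and 17.1 and 18.2 CPM in control (edgeR adjusted p = 0.000442, log2 0.67, SE 0.12), and 5 of its 24 regions were higher and 2 lower. A second Nrp1 region, 57574 bp away, had 2.29 and 2.06 CPM in Notch2_cKO and 0.813 and 0.488 CPM in control. Sparc, which encodes a matricellular protein that binds PDGF, had 5 higher regions of 19, and Plat, which encodes the protease tPA that activates PDGF-C, had 1 of 3. Lrp1 had 1 higher and 4 lower regions of 18, and Plau 3 higher and 1 lower of 14. St14 had 1 lower region of 5, and Furin had no called region.

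Genes that carry the receptor signal had 25 higher and 21 lower of 222 regions at 24 genes (20.7% called, median log2 0.04). A region inside Nck1, an adaptor, had 8.95 and 9.58 CPM in Notch2_cKO and 2.18 and 3.00 CPM in control (log2 1.82, SE 0.19, edgeR adjusted p = 1.17e-06). A region inside Gab2, a docking protein, had 3.02 and 1.77 CPM in Notch2_cKO and 8.06 and 9.92 CPM in control (log2 -1.80, SE 0.21, edgeR adjusted p = 3.93e-06). Genes that damp receptor signals had 13 higher and 20 lower of 148 regions (22.3% called, median log2 -0.06). Among them a region 40521 bp from Spred1, an inhibitor of Ras signalling, had 9.23 and 12.3 CPM in Notch2_cKO and 26.4 and 24.4 CPM in control, and a region 7258 bp from Socs1, an inhibitor of JAK kinases, had 9.50 and 10.9 CPM in Notch2_cKO and 3.73 and 3.91 CPM in control.

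Related receptor genes (Kit, Csf1r, Flt3, Kdr, Flt1 and Flt4) had 8 higher and 6 lower of 49 regions (28.6% called, beside 23.6% of all regions). Flt1, a VEGF receptor gene, held 7 of the higher and 3 of the lower ones. Kdr had 1 higher and 2 lower regions, and Kit had 1 lower. The Flt1 region of smallest p had 30.6 and 27.2 CPM in Notch2_cKO and 9.97 and 11.6 CPM in control (log2 1.42, SE 0.14, edgeR adjusted p = 4.82e-07), and another, 16362 bp from the gene, had 4.34 and 3.76 CPM in Notch2_cKO and 1.28 and 1.20 CPM in control.

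Markers of cells that also use PDGF were set beside these values. Over all regions 23.6% were called, 12.4% as higher and 11.2% as lower. Mural cell markers, all 11 with a region, had 5 higher and 11 lower of 87 regions (median log2 0.02), and their summed level was 784 and 827 CPM in Notch2_cKO and 819 and 815 CPM in control. The mural regions of smallest p lay near Kcnj8 (3.28 and 3.37 against 1.05 and 0.802 CPM) and inside Rgs5 (5.49 and 4.46 against 1.82 and 2.03 CPM), both higher in Notch2_cKO. The 11 lower mural regions lay at 8 of the genes, among them Mcam, Acta2 and Tagln with 1 each, and Kcnj8 also had 1 lower region. Of the 5 higher mural regions 3 lay at Rgs5 and 1 each at Notch3 and Kcnj8. The highest level among the regions of a mural gene also went both ways. For Mcam it was 10.1 and 11.9 CPM in Notch2_cKO and 19.4 and 18.2 CPM in control. For Tagln it was 9.81 and 8.55 CPM in Notch2_cKO and 14.8 and 16.3 CPM in control. It was higher in Notch2_cKO for Rgs5 (18.2 and 20.0 against 14.3 and 14.4 CPM) and Abcc9 (30.3 and 35.7 against 26.8 and 25.9 CPM). For Myh11 the groups overlapped (67.4 and 76.1 against 70.0 and 66.6 CPM). Blood endothelial markers, all 8 with a region, had 11 higher and 3 lower of 64 regions (21.9% called). Their summed level was 422 and 411 CPM in Notch2_cKO and 360 and 345 CPM in control. The region of smallest p lay 78363 bp from Cdh5 (32.7 and 24.5 against 6.82 and 8.34 CPM). The next lay 13086 bp from Tek (5.53 and 4.69 against 1.24 and 0.915 CPM). Tek had 5 higher regions, Cdh5 3, Pecam1 2 and Emcn 1. Of the lower regions 2 lay at Erg and 1 at Cdh5. Esam, Tie1 and Sox17 had no called region. Lymphatic endothelial markers, all 5 with a region, had 8 lower of 47 regions (17.0% called) and 39 that did not pass. Of the lower regions 6 lay at Reln and 1 each at Stab2 and Mmrn1, and Prox1 and Lyve1 had none. Summed over the list, levels were 205 and 220 CPM in Notch2_cKO and 261 and 253 CPM in control. The regions of smallest p lay inside Reln (3.40 and 3.87 against 10.5 and 10.7 CPM, and 6.69 and 8.82 against 18.7 and 20.7 CPM).

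Leukocyte markers, 6 of 8 with a region, had 2 lower of 16 regions, both at Ms4a1 (0.829 and 0.687 against 2.01 and 2.23 CPM at the first), and summed levels of 106 and 109 CPM in Notch2_cKO and 123 and 114 CPM in control. Reticular cell markers, 7 of 9 with a region, counted 13 higher and 6 lower of 71 regions (26.8% called, beside 23.6% of all regions). Ccl19 and Ccl21a had no region among those analysed here. Summed levels were 611 and 597 CPM in Notch2_cKO and 579 and 581 CPM in control. Of the higher regions 8 lay at Cxcl12, 3 at Pdpn and 2 at Il7. Of the lower ones 3 lay at Col6a1 and 1 each at Bst1, Col1a1 and Cxcl12. The highest level among the regions of Col6a1 was 19.2 and 22.3 CPM in Notch2_cKO and 33.6 and 33.1 CPM in control. The Cxcl12 regions of smallest p had 9.34 and 8.50 against 3.60 and 3.59 CPM, and 2.04 and 1.82 against 0.339 and 0.494 CPM. In these bulk libraries a different share of a cell type and a different accessibility per cell cannot be told apart, and the part of these markers in the values of the PDGF genes was not tested.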

How the data were processed

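Per the labels, the authors counted reads in windows with csaw and deposited loess-normalized counts in mm10. The deposited values are whole-number counts in 678058 windows of 300 bp (10 shorter), spaced by 50 bp. Summed over best windows they differ up to 2.45 times between libraries, so they were treated as counts without normalization. The submitters' processing notes name Bowtie2 2.4.5, Picard 2.27.5, SAMtools 1.14, Trim Galore 0.6.7, deepTools and cutadapt, with no order. Peak calling, window filters and any shift of reads for the transposase were not given in the sources used here.

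Merging windows separated by at most 100 bp gave 110110 regions of 600 bp at the median, each represented by the window of highest summed count. Genes were the 21896 protein-coding ones of a RefSeq table of the same assembly, without exons. Loess offsets in the manner of csaw and edgeR 4.0.16 (quasi-likelihood, genotype only) gave all tests, adjusted over all regions or all genes at 0.05; the SE is the log2 change over the square root of F. Other tools were limma 3.58.1, DESeq2 1.42.0, R 4.3.3 and Python 3.11.15. Values of both genotypes joined by "against" give Notch2_cKO and then control. Named were, per gene, the most open region, the gene-end region or that nearest the start, and up to 4 called regions each way, and per list the 2 regions of smallest p with groups apart; further regions were added after their values were seen. Members and lists were chosen with earlier results of these data known. Chi-square per region was 2.78 between the Notch2_cKO libraries and 1.96 between the controls, against 11.0 between Notch2_cKO 1 and control 1, so no pair was counted as 1. Per the labels each replicate is a pool of its own.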

Additional observations from a re-analysis of the deposited data

How the results depend on the processing

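The 8 higher and 5 lower member regions became 4 and 2 with the DESeq2 test, 4 and 3 at an adjusted p under 0.01, and 3 and 1 when a 2-fold change was also asked for; 5 were higher with genes within 10000 bp. Over all regions the counts of 13663 higher and 12368 lower became 7381 and 5470 with DESeq2, 8485 and 7061 at 0.01, and 6040 and 4851 at 2-fold. With a library left out, 3 to 9 member regions were higher and 3 to 8 lower, all regions gave 8856 to 15579 higher and 8035 to 14677 lower, and 0 to 4 of 7 gene sums passed instead of 3; no gene sum reached 2-fold (0 of 7). Fits without a library assume that the single remaining one varies as the other genotype does. All 13 calls remained under TMM, DESeq2 size factors and median centring, 11 with limma, 11 with summed windows and 6 with DESeq2. The 6 kept with DESeq2 lay at Pdgfra (75148701, 75207851 and 75249801), Pdgfrb (61058501), Pdgfa (138920101) and Pdgfb (80003501). No called region changed direction under an alternative that gave it a value. The one 13286 bp past the higher-numbered end of Pdgfb had none with DESeq2 or either filter on level. That 51744 bp past Pdgfra had none without the lowest 25% of regions. With the replicate number as a block, 5 member regions were higher and 5 lower, and the Pdgfd sum missed the threshold (edgeR adjusted p = 0.0785); the labels do not say that numbers mark pairs, and deviations of same-numbered libraries correlated at -0.2. Crossed replicate blocks, chosen after seeing the data, gave 9 higher and 7 lower. The size of the change 13286 bp past the higher-numbered end of Pdgfb is limited by its 35 and 13 counts in Notch2_cKO and 8 and 5 in control.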

Other observations

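Beyond the limit of 100000 bp, 5 further regions on chromosome 3 had Pdgfc as their nearest protein-coding gene; they were looked at after their values were seen and are given without a test. At 81377401, 163660 bp from the gene, there were 154 and 46 counts in Notch2_cKO and 21 and 16 in control (5.02 and 3.53 against 0.925 and 0.639 CPM). At 81484901, 271110 bp away, there were 5.41 and 3.46 CPM in Notch2_cKO and 1.06 and 0.798 CPM in control. At 81564051, 350310 bp away, there were 14.1 and 14.2 CPM in Notch2_cKO and 5.23 and 6.08 CPM in control, more than at any of the 3 regions assigned to Pdgfc. Of the 5 regions, 3 had both Notch2_cKO libraries above both controls and 1 had them below. Groups that do not overlap were found at 59.8% of all regions. Of 4 regions beyond the limit at Pdgfra, 3 had both Notch2_cKO libraries below both controls, among them one 179744 bp from the gene with 9.61 and 12.9 CPM in Notch2_cKO and 18.2 and 16.2 CPM in control. The single region beyond the limit at Pdgfd, 134216 bp from the gene, had 16.3 and 16.4 CPM in Notch2_cKO and 18.7 and 18.9 CPM in control.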
